A study of Mus musculus with 6 samples.

Results

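Livers labelled as frozen within 1 day of birth were compared between offspring of mothers that had eaten flaxseed oil and offspring of mothers that had eaten soybean oil. The first group is called ALA, for alpha-linolenic acid, and the second Control. The comparison used the 2 ALA and 2 Control arrays, 4 of the 6 arrays of the series, chosen by their labels. It covered all 19938 genes that had a probe annotated to exactly 1 gene symbol, each represented by its brightest probe. Of these, the 10977 genes with a mean log2 signal of at least 5 over the 6 arrays were tested. The other 2 arrays, labelled with the same age, came from offspring whose mothers had eaten coconut oil (SFA, for saturated fatty acids). They were used to ask which differences were seen with flaxseed oil and not with coconut oil, and they entered the estimate of each gene's spread.

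All mice were C57Bl6/J, and the labels give 4 to 5 weeks as the age of the mice used. The 3 maternal diets were matched in energy and held 6 g% of oil each. Per the labels, alpha-linolenic acid reached 31.6% in the ALA diet and saturated fatty acids 48.51% in the SFA diet. Sires ate chow except while they were housed with the dams. The animals lived under 12 h of light and 12 h of dark. Each array carried RNA pooled from 3 livers that, by the labels, were frozen within 1 day of birth. Each diet had duplicate pools, numbered 1 and 2 in the labels (Control 1, ALA 2 and so on). Sex, litter and hour of collection are not given. Nor do the labels say that the duplicate pools came from different animals, so the p-values measure only the spread between these pools, which may be technical for ALA and SFA. The Control pools differed in sex-linked genes (Eif2s3y at 3.63 on Control 1 and 7.95 on Control 2). They were therefore not the same livers, and their spread includes a difference in sex makeup.

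Alpha-linolenic acid is an essential omega-3 fatty acid that the liver desaturates and elongates into longer polyunsaturated fatty acids. Polyunsaturated fatty acids are known to restrain SREBP-1, the transcription factor that drives fatty acid synthesis, and to activate PPAR alpha, the receptor that drives fatty acid oxidation. The liver also carries a circadian clock. In it, CLOCK and BMAL1 (Arntl) switch on genes through E-boxes, the PER and CRY proteins repress them, and output factors such as DBP and TEF act on D-boxes.

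Over the tested genes, the r between duplicates was 0.977 (Control), 0.978 (ALA) and 0.986 (SFA), and between diets it ran from 0.927 to 0.964; genes are not independent replicates here. The 10 hepatocyte markers averaged 12.0 and 12.1 on the Control arrays and 12.13 and 12.07 on the ALA arrays, and Alb was between 12.58 and 12.75 on all 6. Pools differed in sex-linked genes. Eif2s3y, a Y-linked translation factor gene, gave a log2 signal of 3.63 on Control 1, 7.95 on Control 2, 7.74 and 7.80 on ALA, and 4.11 and 3.79 on SFA. Xist, which silences an X chromosome in female cells, was at 10.67 and 8.34, at 3.76 and 4.24, and at 9.46 and 9.51 in the same order. The ALA pools thus had male signal only, Control 1 and the SFA pools female signal only, and Control 2 both. Diet and sex makeup therefore cannot be told apart between ALA and SFA, and no Control pool matched the male-only signal of the ALA pools, so ALA against Control is also a contrast of sex makeup; Xist itself was called there, at -5.50. Afp, the alpha-fetoprotein gene that marks fetal and newborn liver, reached only 4.52 and 4.81 on the Control arrays, 4.94 and 5.60 on the ALA arrays and 6.26 and 6.44 on the SFA arrays. The level of 4.42, which Y-linked genes did not exceed in the female pools, is taken here as low signal, and the Control values of this newborn marker lay close to it. Igf1, which is on the list of genes that rise in the liver after birth, was between 10.71 and 10.97 on all 6 arrays. The age of the livers is known here from the labels only and was not tested.

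Between ALA and Control, 561 genes (5.11% of those tested) were called higher on ALA and 310 (2.82%) lower, at an adjusted p below 0.05 in limma's moderated test with n = 2 arrays per group. Genes at an unadjusted p below 0.05 numbered 2714. The median difference over all tested genes was -0.01 on the log2 scale. The same 2 Control arrays served the comparison of SFA with Control, which called 727 genes (6.62%) higher and 785 (7.15%) lower. ALA and SFA differed directly in 120 genes (1.09%) higher on ALA and 48 (0.437%) lower. Most genes called on ALA were not told apart from SFA: 819 of the 871 were not called between the 2 oils. Fewer genes were called on ALA with an array less: 475 without Control 1, 267 without Control 2, 453 without ALA 1, 384 without ALA 2, and 448 when either SFA array was dropped.

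A group of 46 genes (5.28% of the 871) was called on ALA against both Control and SFA in the same direction, 30 higher and 16 lower. In all 46, both ALA arrays lay on one side of both Control and both SFA arrays. This largely follows from the rule that chose the genes on these same arrays and adds no evidence for the group. For 30 of them the SFA mean was within 0.32 of the Control mean on the log2 scale, and for 6 SFA had also moved, in the same direction. This group depends on every array. Its adjusted p between ALA and SFA ran from 0.0294 to 0.0461, and the number of genes so called over the whole table was 3, 6, 0 or 12 without Control 1, Control 2, ALA 1 or ALA 2, and 0 without either SFA array. With the arrays brought to equal 75th percentiles it was 31, 12 higher and 19 lower, and after quantile normalization 23, 12 higher and 11 lower, so the excess of higher genes does not hold under other scalings. Against Control alone the genes were steadier: 11 of the 29 genes named from this group kept their call without each of the 6 arrays in turn. The other 18 lost it without at least 1 array, and between 15 and 23 of the 29 were called in each case. The 11 were Dmbt1, Usp2, Thrsp, Zbtb16, Ints6l, Nmrk1, Lpin1 and Fkbp5 among the higher genes and Ugdh, Cyb5b and Sgms2 among the lower. The 46 include Xist, and the ALA pools were the only ones with male signal alone; the part of sex in this group was not tested.

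**Figure D1:**
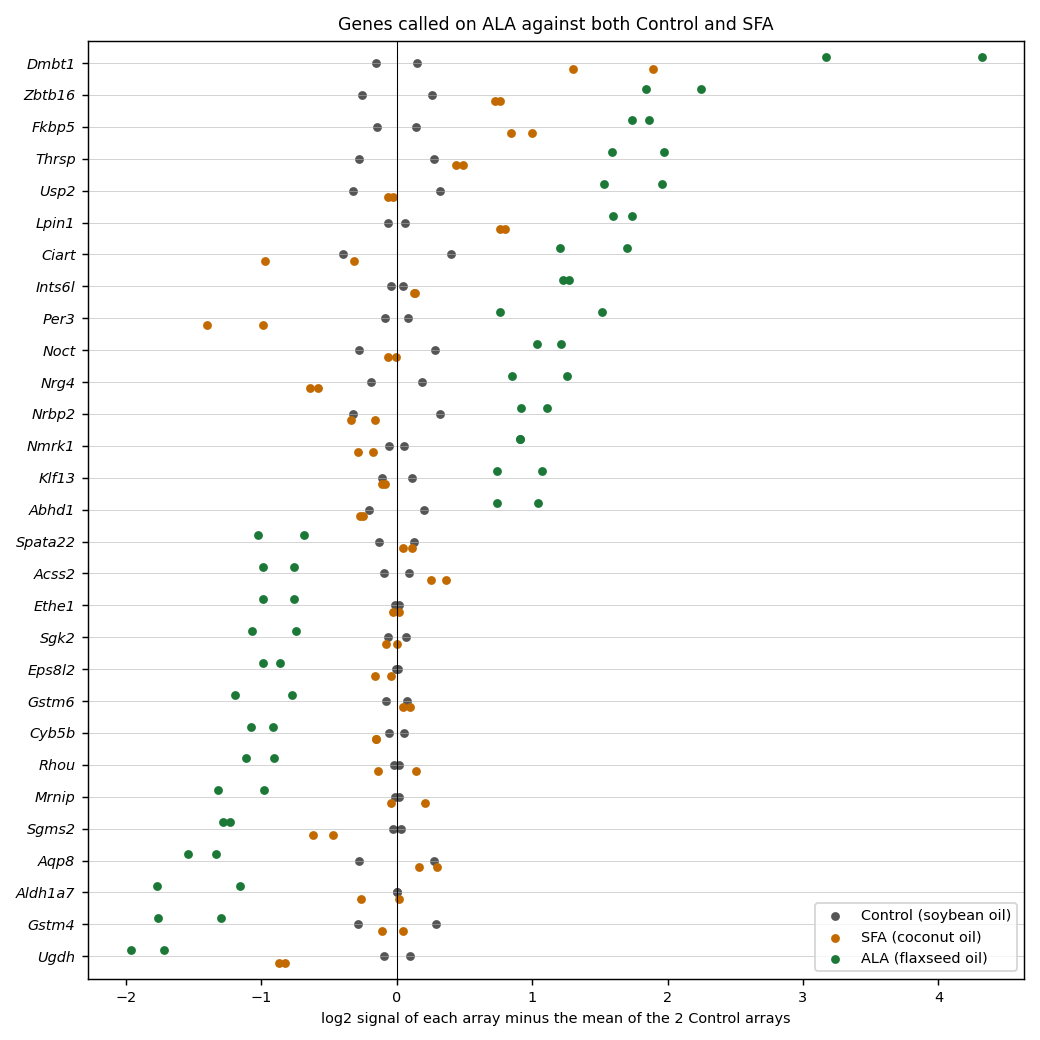
Log2 signal of each array minus the mean of the 2 Control arrays, for the 29 named genes called on ALA against both Control and SFA (grey, Control; orange, SFA; green, ALA; 2 points per diet). The ALA points of 15 genes lie to the right of all other points in their line and those of 14 genes to the left. The rule that chose the genes favours this. For Dmbt1, Zbtb16, Fkbp5, Lpin1, Ugdh and Sgms2, among others, both SFA arrays lie between the other diets.

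Clock genes were among the genes higher on ALA than on both other diets: 4 of the 30 (Usp2, Ciart, Per2 and Per3) were on the clock list. That list holds 25 of the 10977 tested genes. RNAs of clock genes vary with the time of day, and the hour of collection is not given. Diet and hour therefore cannot be told apart for the clock genes here and below, and the part of the hour was not tested. Ciart, which encodes a repressor of CLOCK and BMAL1, and Per3, a period gene, are shown by their promoters because they carry the motifs of the clock's 2 arms. The sequences are from RefSeq (GRCm38.p6), on the gene's strand, with the motifs in capitals: E-boxes (CACGTG) in Ciart and D-boxes (TTATGTAA) in Per3.
Ciart, chr3:95882257-95882354, minus strand: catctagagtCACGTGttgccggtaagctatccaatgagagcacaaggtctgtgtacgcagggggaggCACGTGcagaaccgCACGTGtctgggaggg
Per3, chr4:151044806-151044880, minus strand: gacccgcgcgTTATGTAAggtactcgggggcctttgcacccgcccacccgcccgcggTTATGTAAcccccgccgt
The Ciart stretch runs from base -126 to base -29 of the gene's start and holds 3 E-boxes, and the Per3 stretch runs from -215 to -141 and holds 2 D-boxes. Over all 32851 promoter windows of 250 bases, 6.02% held a CACGTG and 0.931% a D-box (TTATGTAA or TTACGTAA, on either strand; neither overlaps CACGTG). Of the 25 tested clock genes, 21 had a promoter entry, of which 6 held an E-box and 1 a D-box. A match describes the letters and is not a measured binding site.

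Of the 25 tested genes of the circadian clock and its outputs, 8 rose on ALA (32.0%, against 5.11% of all tested genes) and 1 fell. On SFA 2 rose and 8 fell, against 6.62% and 7.15% of all tested genes. Between the oils 7 were higher and 1 lower on ALA, against 1.09% and 0.437% of all tested genes. Their median difference from Control was 0.35 on ALA and -0.04 on SFA. Without Control 1, Control 2, ALA 1 or ALA 2, the number that rose was 4, 2, 4 or 2. Per3, Per2, Grik5, Gm10590 and Klhl6 were the 5 genes of the whole table that rose on ALA and fell on SFA, 2 of them period genes. Grik5, a kainate receptor gene, rose by 0.64 and fell by 0.77, Gm10590 by 0.64 and 0.63, and Klhl6, a ubiquitin ligase adaptor gene, by 0.57 and 0.50. Between 0 and 3 genes had opposite calls when single arrays were dropped.

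Per2, which encodes the core repressor PER2, was at a log2 signal of 6.96 and 6.92 on Control, 7.79 and 7.63 on ALA, and 5.96 and 5.58 on SFA. The 3 diets did not overlap, with ALA highest and SFA lowest. Per2 rose by 0.77 on ALA (SE 0.16, adjusted p = 0.033), fell by 1.17 on SFA, and differed by 1.94 between the oils (adjusted p = 0.0294). Per3 was at 7.21 and 7.03 on Control, 7.88 and 8.64 on ALA, and 6.13 and 5.72 on SFA. It showed the same order as Per2, with a rise of 1.14 on ALA (SE 0.26) and a fall of 1.19 on SFA. The call on ALA was lost for Per2 without any 1 of the Control or ALA arrays, and for Per3 without any array but ALA 1. Over the 6 arrays left out in turn, the difference from Control ranged from 0.69 to 0.86 for Per2 and from 0.77 to 1.52 for Per3.

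Usp2, a deubiquitinase gene whose RNA cycles strongly in liver, was at 7.06 and 7.71 on Control, 9.35 and 8.92 on ALA, and 7.32 and 7.36 on SFA. Only the ALA arrays stood apart, with a rise of 1.75 (SE 0.24, adjusted p = 0.00901), which is 3.35-fold, against -0.04 on SFA. Ciart rose by 1.45 (SE 0.33) on its brightest probe and by 3.09 on its other probe, so its size is uncertain, and its call on ALA was lost without any 1 of the 6 arrays. Noct, which is not on the list and encodes the rhythmic phosphatase nocturnin, rose by 1.13 (SE 0.19) on ALA and was at -0.04 on SFA; the call was lost without Control 2 or either ALA array.

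Other clock genes moved on both oils or on coconut oil alone. Cry1, a cryptochrome gene that represses CLOCK and BMAL1, was at 5.00 on both Control arrays, 6.31 and 6.27 on ALA, and 6.05 and 6.08 on SFA, a rise of 1.29 on ALA (SE 0.12) beside 1.07 on SFA. Nr1d1, the gene of the repressor REV-ERB alpha, fell by 1.31 on ALA (SE 0.16) and by 1.16 on SFA. Arntl, the BMAL1 gene, rose by 0.70 on ALA and by 1.99 on SFA, and was 1 of 6 genes called on both oils whose change was smaller on ALA by the direct test. Dbp and Tef, which encode the D-box activators, fell by 2.18 and 1.01 on SFA, while on ALA they were at -0.46 and 0.20 and did not pass the test. Both were higher on ALA than on SFA, by 1.72 and 1.21 (adjusted p = 0.0348 for each). Per1 and Cry2 rose on ALA by 1.06 and 0.74 and were at 0.20 and 0.16 on SFA, where neither passed. The call of Per1 was lost without Control 2 or ALA 2, and those of Cry2 and Arntl on ALA without any 1 of the 6 arrays. Arntl, Dbp, Tef, Per1 and Cry2 fall outside the rule for naming genes and were chosen after their values were seen.

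**Figure D2:**
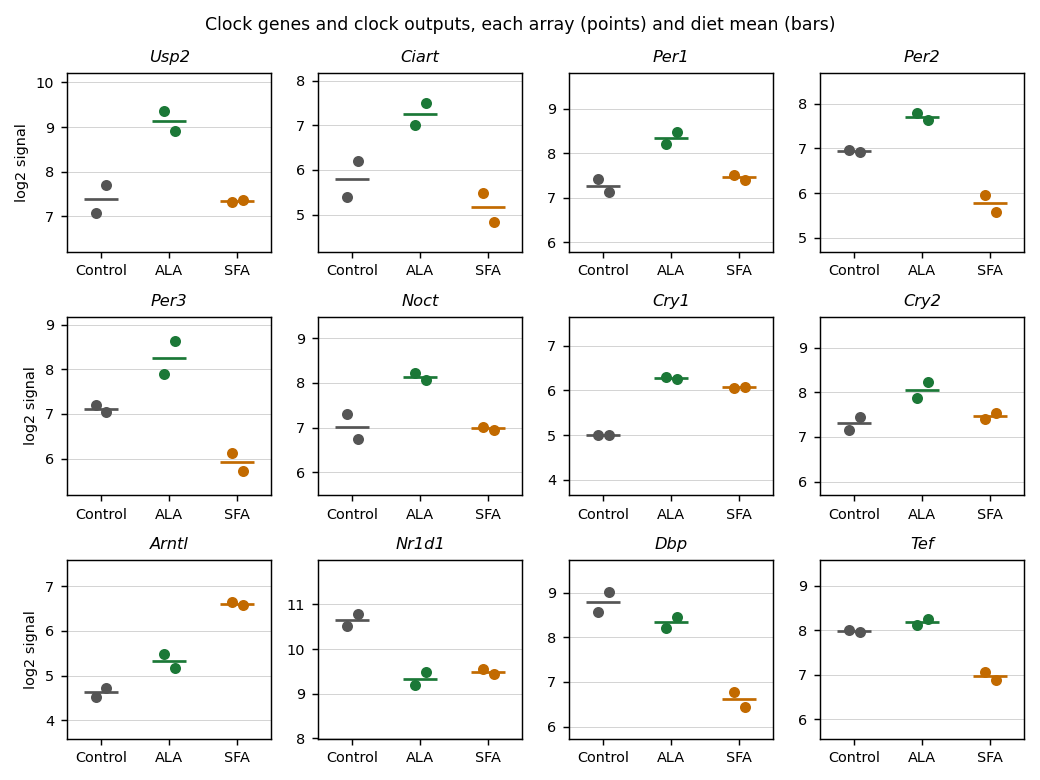
Log2 signal of 12 clock genes and outputs on each array (points) with the mean of each diet (bars); every panel spans the same range of log2 units. The ALA arrays lie above both other diets for Usp2, Ciart, Per1, Per2, Per3 and Noct, while SFA stands apart for Arntl, Dbp and Tef. The hour of collection is not given and cannot be told apart from diet.

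Several regulators outside the clock list were also highest on ALA. Fkbp5, a co-chaperone gene of the glucocorticoid receptor that glucocorticoids induce, was at 7.02 and 6.74 on Control, 8.74 and 8.61 on ALA, and 7.88 and 7.72 on SFA. It rose on both oils, by 1.80 on ALA (SE 0.15, adjusted p = 0.00282) and by 0.92 on SFA, and the excess on ALA was 0.88 (adjusted p = 0.0431). Zbtb16, the gene of the zinc finger repressor PLZF, rose by 2.04 on ALA (SE 0.21), from 7.33 and 7.85 to 9.43 and 9.84, with 8.35 and 8.32 on SFA. All 3 diets were apart for both genes. Nrg4, which encodes a secreted ligand of the ERBB4 receptor, rose by 1.05 (SE 0.19) and was at -0.61 on SFA. Nmrk1, the gene of a kinase that makes NAD from nicotinamide riboside, rose by 0.91 (SE 0.12) and was at -0.23 on SFA. Klf13, a Krüppel-like transcription factor gene, rose by 0.91, and the pseudokinase gene Nrbp2 by 1.01. The calls of Nrg4, Klf13 and Nrbp2 against Control were each lost without 3 or more of the 6 arrays.

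Dmbt1, which encodes a scavenger receptor of mucosal surfaces, had the largest rise of the group, from 3.98 and 3.68 on Control to 8.15 and 7.0 on ALA, with 5.72 and 5.13 on SFA. Its Control signal was below the low level of 4.42, so the size of the rise, 3.75 (SE 0.37), is uncertain beyond its SE. Dmbt1 is also among the 18 intestine and stomach markers with a probe, whose mean signal was 4.99 and 4.91 on Control, 5.21 and 5.25 on ALA, and 5.00 and 5.03 on SFA. The part of another tissue in the result was not tested. Ints6l, a gene on chromosome X, rose by 1.25 (SE 0.12) on ALA and was at 0.13 on SFA; without genes on X and Y the group numbered 44.

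Lpin1 and Thrsp, both genes of lipid synthesis, were in this group too. Lpin1, which encodes the phosphatidate phosphatase that supplies diacylglycerol for triglyceride, was at 9.22 and 9.10 on Control, 10.89 and 10.76 on ALA, and 9.96 and 9.92 on SFA. It rose by 1.67 on ALA (SE 0.12, adjusted p = 0.00246), 3.17-fold, and by 0.78 on SFA, with the 3 diets fully apart. Thrsp, the gene of the lipogenic nuclear protein Spot 14, was at 8.32 and 7.77 on Control, 9.63 and 10.02 on ALA, and 8.48 and 8.53 on SFA. It rose by 1.78 on ALA (SE 0.21) and did not pass on SFA, where it was at 0.46.

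Of 28 tested genes of triglyceride synthesis and lipid droplets, 3 rose on ALA and 1 fell (10.7% and 3.57%, against 5.11% and 2.82% of all tested genes), and their median was 0.07. Beside Lpin1 these were Plin5, a lipid droplet coat gene that rose by 1.13 (SE 0.14), Pnpla2, the gene of the lipase ATGL that rose by 0.80, and Fitm1, a droplet formation gene that fell by 0.87. Plin5 was at 6.75 and 6.85 on Control, 7.96 and 7.89 on ALA, and 7.13 and 7.40 on SFA, so ALA was highest on both arrays, but its excess over SFA of 0.66 did not pass (adjusted p = 0.0659). The call of Pnpla2 was lost without any array but ALA 1, and that of Fitm1 without any Control or ALA array.

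The lipogenic enzymes and their regulators moved in both directions. Of 23 tested, 3 rose and 6 fell on ALA (26.1% lower, against 2.82% of all tested genes), while 1 rose and 3 fell on SFA, and the medians were -0.58 and -0.21. The number that fell was 4, 1, 3 or 5 without Control 1, Control 2, ALA 1 or ALA 2. Acss2, which makes acetyl-CoA from acetate, was at 8.26 and 8.44 on Control, 7.36 and 7.59 on ALA, and 8.60 and 8.71 on SFA. It was the 1 gene of the list called lower on ALA than on SFA, by 1.18, having fallen by 0.87 from Control (SE 0.14); the fall was not called without Control 2 or ALA 1. Me1, the gene of malic enzyme, which supplies NADPH for fatty acid synthesis, fell by 1.71 on ALA (SE 0.21) and by 1.21 on SFA. Mid1ip1, a partner of Spot 14 and of acetyl-CoA carboxylase, fell by 1.06 on ALA and was at -0.51 on SFA; its call was lost without Control 2, and a dimmer second probe was at -0.08. Srebf1, the SREBP-1 gene, fell by 0.77 on ALA and by 1.03 on SFA, and its call on ALA was lost without any 1 of the 6 arrays.

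The stearoyl-CoA desaturase genes, which encode enzymes that introduce the double bond of oleic acid, split. Scd1 was at 11.58 and 11.74 on Control, 8.77 and 10.47 on ALA, and 11.47 and 11.43 on SFA. Both ALA arrays were below every other array, but they differed from each other by more than the duplicates of the other diets did. The fall of 2.04 (SE 0.47, adjusted p = 0.0459) passed narrowly, and its call was lost without any 1 of the Control or SFA arrays; the difference then or without an ALA array ranged from -2.89 to -1.19. Scd2 rose by 1.32 on ALA (SE 0.25), from 5.65 and 5.67 to 6.95 and 7.01, and was not called without any 1 of the Control or ALA arrays. Fasn, the fatty acid synthase gene, was at 8.81 and 9.79 on ALA against 10.46 and 9.78 on Control and did not pass (adjusted p = 0.192). Elovl3, an elongase gene, was at 6.02 and 10.12 on Control and at 3.88 and 3.79 on ALA, a difference of -4.23 (SE 1.13) that did not pass (adjusted p = 0.0678) and was called without Control 1.

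**Figure D3:**
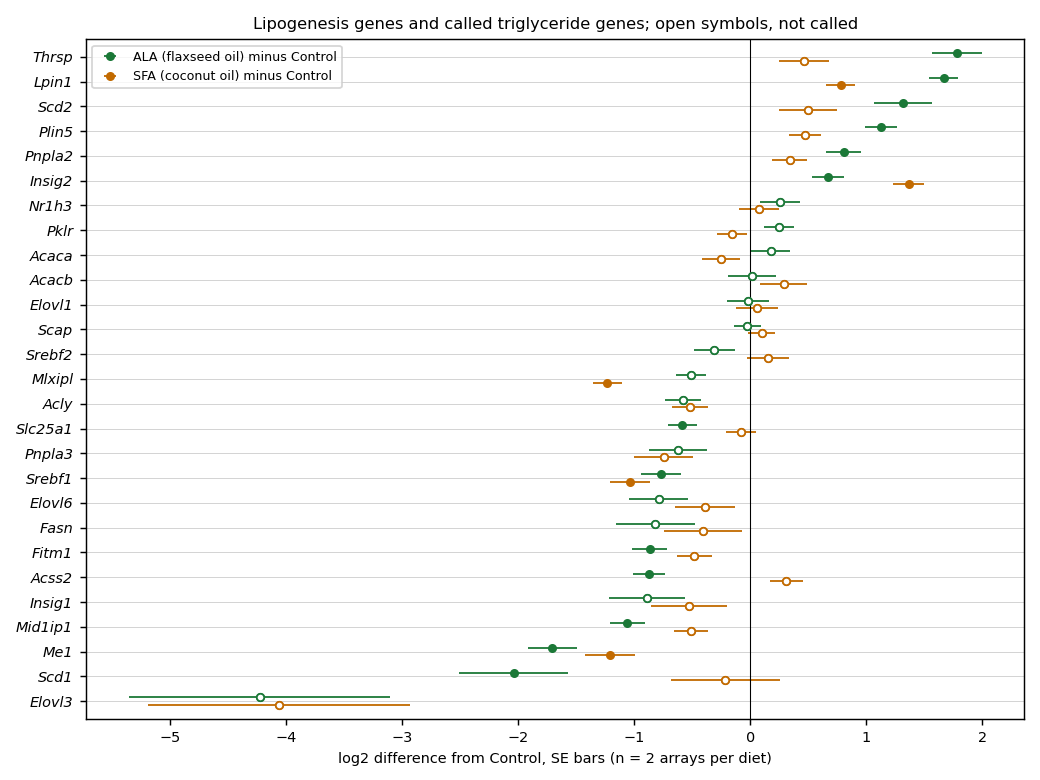
Log2 difference from Control for the tested genes of lipogenesis and the called genes of triglyceride synthesis, for ALA (green) and SFA (orange), with SE bars (n = 2 arrays per diet); filled points were called and open points were not. Thrsp and Lpin1 lie farthest to the right on ALA, Scd1 and Me1 are the lowest called genes, and Acss2 lies on opposite sides of 0 on the 2 oils.

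The 18 genes of cholesterol synthesis all had a lower mean on ALA than on Control, with a median of -0.92 against -0.08 on SFA. Of these, 2 passed the test (11.1%, against 2.82% of all tested genes lower): Pmvk, which fell by 1.04, and Sc5d, which fell by 0.66. ALA 1 was lower than ALA 2 for 18 of 18, and both ALA arrays were below both Control arrays for 14. Such separation was not counted over all tested genes, so the 14 cannot be set against a background. The median was -0.29 without ALA 1, and 15 genes were called lower, with a median of -1.44, without ALA 2. Without Control 1, Control 2 or ALA 1, 0 were called.

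The genes that handle polyunsaturated fatty acids form a conversion list and a mediator list. Of 15 genes of polyunsaturated fatty acid conversion, 0 passed on ALA in limma's test, where 5.11% of all tested genes were called higher and 2.82% lower. An unadjusted p below 0.05 was reached by 7 of the 15, beside 2714 of all 10977 tested genes. A lower mean on ALA was seen in 12 of the 15, and the median was -0.26. Fads2, the delta-6 desaturase gene at the entry of the pathway, was at 11.44 and 11.38 on Control and 11.17 and 11.24 on ALA, a difference of -0.20 (SE 0.12, adjusted p = 0.348). Fads1, Elovl5 and Elovl2 were at -0.32, -0.51 and -0.14, with adjusted p from 0.106 to 0.526. Among 18 genes of lipid mediators made from these fatty acids, 4 fell (22.2%, against 2.82% of all tested genes) and 0 rose: Ephx1 by 1.30, Pla2g6 by 0.65, Ptges3 by 0.62 and Ephx2 by 0.53. Ephx1 and Ephx2 encode the microsomal and soluble epoxide hydrolases. On SFA they were at -0.87 and -0.81, of which Ephx2 passed. The 4 calls of this list fell to 0 without Control 1, Control 2 or ALA 1, and to 1 without ALA 2.

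Few targets of PPAR alpha were called, in shares near those of all tested genes. Of 38 tested genes of this receptor and of fatty acid oxidation, 1 rose and 2 fell on ALA, and their median was -0.11. These are 2.63% and 5.26%, against 5.11% and 2.82% of all tested genes. Cyp4a31, a fatty acid hydroxylase gene, rose by 1.14, and Vnn1 and Acaa1b, a pantetheinase and a peroxisomal thiolase gene, fell by 1.45 and 1.61. All 3 moved to a similar size on SFA, by 1.01, -1.25 and -1.50. Acaa1b alone kept its call on ALA without each array in turn; that of Cyp4a31 was lost without any but Control 1, and that of Vnn1 without Control 1, ALA 2 or either SFA array. Ppara itself was at -0.003 and Cpt1a, the gate of mitochondrial oxidation, at 0.20, and neither passed; Plin2 and Angptl4, further known targets, were at -0.59 (adjusted p = 0.0789) and 0.60 (adjusted p = 0.0599). Without Control 1, 4 genes of the list were called higher.

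Of 20 tested genes of fatty acid uptake and binding, 4 rose and 2 fell on ALA (20% and 10%, against 5.11% and 2.82% of all tested genes). On SFA 4 rose and 3 fell, against 6.62% and 7.15% of all tested genes. The median was -0.05 on ALA and -0.1 on SFA. Gpihbp1, which anchors lipoprotein lipase to capillaries, rose by 0.72 on ALA (SE 0.13) and was at 0.19 on SFA, but the 2 oils were not called different (adjusted p = 0.0948), and the call on ALA was lost without any array but Control 1. The lipase gene Lpl itself rose by 3.45 on ALA and by 3.98 on SFA, and the fatty acid binding gene Fabp4 by 2.19 and 2.38. Both are also adipose markers, of which 2 of 3 tested rose; the mean of the 9 adipose markers with a probe was 4.52 and 4.49 on Control, 5.11 and 5.20 on ALA, and 5.31 and 5.18 on SFA. The part of adipose cells in these rises was not tested. In sphingolipid synthesis, Sgms2, which makes sphingomyelin, was at 8.09 and 8.15 on Control, 6.84 and 6.89 on ALA, and 7.65 and 7.50 on SFA. The diets did not overlap, and the fall of 1.26 on ALA (SE 0.12, adjusted p = 0.00441) exceeded the fall of 0.54 on SFA.

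Conjugation enzymes, which attach glucuronic acid, glutathione or sulfate to drugs, hormones and bile acids, make up the next list. Of 37 tested, 9 fell on ALA (24.3%, against 2.82% of all tested genes), 1 rose and 27 were not called. On SFA 9 fell too and 3 rose. The median was -0.34 on ALA and -0.03 on SFA. Fewer fell on ALA without any 1 of the Control or ALA arrays, where the median was -0.32, -0.3, -0.25 or -0.33 without Control 1, Control 2, ALA 1 or ALA 2. By family, among 9 UDP-glucuronosyltransferase genes, 6 fell on ALA and 6 on SFA, with medians of -0.99 and -0.67. Among 16 glutathione S-transferase genes, 3 fell on ALA and 0 on SFA, with medians of -0.18 and 0.15. Among 5 sulfotransferase genes, 1 rose and 0 fell on ALA and 1 fell on SFA, with medians of 0.54 and 0.34. A difference between the oils was not tested for these families. SFA counts in this paragraph read against the 6.62% of all tested genes higher and 7.15% lower on SFA.

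Gstm4, a mu-class glutathione transferase gene, was at 9.93 and 9.36 on Control, 7.88 and 8.35 on ALA, and 9.69 and 9.54 on SFA. Control and SFA overlapped and both ALA arrays were lower, by 1.53 in the mean (SE 0.23, adjusted p = 0.013), which is 2.89-fold; the call was lost without ALA 1. Its paralog Gstm6 fell by 0.98 on ALA (SE 0.17) and was at 0.07 on SFA, with the call lost without either Control array or ALA 1. These paralogs are close in sequence, so a probe may share signal between them. Ugdh, which makes the UDP-glucuronic acid that glucuronidation consumes, was at 10.08 and 10.27 on Control, 8.21 and 8.45 on ALA, and 9.35 and 9.30 on SFA. It fell on both oils and further on ALA, by 1.84 (SE 0.14, adjusted p = 0.00246) beside 0.85 on SFA. Ugt3a1 and Ugt2b5 fell by 1.83 and 1.63 on ALA and by 1.94 and 1.14 on SFA, and neither was called different between the oils. Ugt2b38 fell by 1.36 on ALA, a call lost without ALA 2, and was at -0.60 on SFA.

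Of 54 tested cytochrome P450 and other phase 1 genes, 4 rose and 9 fell on ALA (7.41% and 16.7%), beside 4 and 10 on SFA; without Control 1 the number that rose was 10. Counts in this paragraph read against the 5.11% of all tested genes higher and 2.82% lower on ALA, and the 6.62% and 7.15% on SFA. Aldh1a7, an aldehyde dehydrogenase gene, was the 1 of the phase 1 genes called different between the oils. It was at 9.76 on both Control arrays, 7.99 and 8.60 on ALA, and 9.78 and 9.49 on SFA, a fall of 1.47 on ALA (SE 0.21) that was not called without either Control array. Its close relative Aldh1a1, the retinal dehydrogenase gene, fell on both oils, by 1.52 and 1.31, as did Adh4, an alcohol dehydrogenase gene, by 2.05 and 1.59. The aldo-keto reductase and steroid list had 2 genes that rose and 6 that fell of 30, and 2 or 3 fell without Control 2 or ALA 1. On SFA 3 of the 30 rose and 4 fell. Within this list Akr1c19 fell by 1.56 on ALA (SE 0.19) and was at -0.65 on SFA. Akr1c18, a progesterone-inactivating enzyme gene, rose by 2.09 on ALA and by 4.76 on SFA. Its Control signal was 4.22 and 4.29, below the low level, and its call on ALA was lost without either Control or either SFA array.

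**Figure D4:**
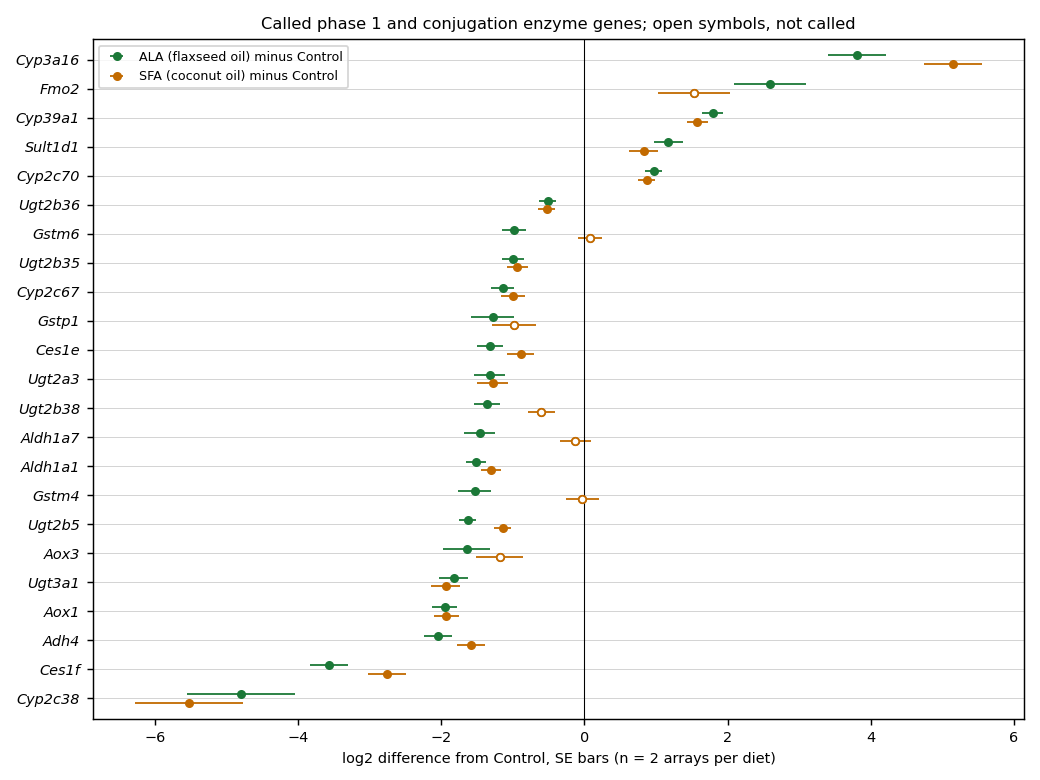
Log2 difference from Control for the phase 1 and conjugation enzyme genes called on ALA, for ALA (green) and SFA (orange), with SE bars (n = 2 arrays per diet); filled points were called and open points were not. Gstm4, Gstm6 and Aldh1a7 lie near 0 on SFA and between -1.53 and -0.98 on ALA, while most other genes lie close together on the 2 oils.

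Gclc, the catalytic subunit of the rate-limiting enzyme of glutathione synthesis, was at 11.40 and 11.15 on Control, 9.98 and 10.04 on ALA, and 10.68 on both SFA arrays. The diets were fully apart, and Gclc fell by 1.26 on ALA (SE 0.13, adjusted p = 0.00499) and by 0.59 on SFA, with a difference of -0.67 between the oils that did not pass (adjusted p = 0.0613). The modifier subunit gene Gclm fell by 0.57 and Gsr, glutathione reductase, by 0.60 on ALA, while on SFA they were at -0.22 and -0.10; Gclm was chosen after its values were seen, and the calls of both were lost without any 1 of the 6 arrays. In the whole oxidative stress and glutathione list, 9 of 37 rose and 5 fell (24.3% and 13.5%, against 5.11% and 2.82% of all tested genes). Fewer were called in each direction when a Control or ALA array was dropped. On SFA 9 of the 37 rose and 3 fell, against 6.62% and 7.15% of all tested genes. The genes that rose on ALA were led by the metallothioneins Mt2 and Mt1, at 2.77 and 2.47 on ALA beside 2.67 and 2.36 on SFA. Mt2 was not called on ALA without either ALA array.

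Further transport and mitochondrial genes were lower on ALA than on both other diets. Aqp8, which encodes a channel for water and hydrogen peroxide, was at 8.60 and 8.04 on Control, 6.98 and 6.78 on ALA, and 8.48 and 8.62 on SFA. Both ALA arrays lay below the rest, and the fall of 1.44 (SE 0.20, adjusted p = 0.00933), 2.71-fold, was lost as a call without ALA 2. Cyb5b, the outer mitochondrial membrane cytochrome b5, fell by 0.99 (SE 0.13) and was at -0.15 on SFA. Ethe1, a mitochondrial enzyme gene of sulfide disposal, fell by 0.87, and the small GTPase gene Rhou by 1.01. Mrnip, whose product acts in the DNA damage response, fell by 1.15, and Sgk2, Eps8l2 and Spata22 by 0.90, 0.92 and 0.85. On SFA the genes from Ethe1 to Spata22 were between -0.10 and 0.09. Of these, Cyb5b alone was called without each array in turn, and Control 2 was needed for the calls of Ethe1, Rhou, Mrnip, Sgk2, Eps8l2 and Spata22. The calls of Ethe1, Rhou and Sgk2 were lost without other arrays too, and that of Spata22 without most arrays.

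Lists of growth genes and of other liver cells held called genes on both oils, and 0 of the mitosis and matrix genes were called between ALA and SFA. Counts in this paragraph and the next read against the 5.11% of all tested genes higher and 2.82% lower on ALA. On SFA these shares were 6.62% and 7.15%, and for ALA against SFA 1.09% and 0.437%. Of 67 mitosis genes with a probe, 47 reached the signal minimum of 5, a mean over all 6 arrays. In this paragraph and the next, genes low on Control could reach it through the ALA and SFA arrays where they were high. Among the 47 mitosis genes, 15 rose on ALA and 0 fell (31.9%), with a median of 0.95. On SFA 35 of them rose, with a median of 1.55. The 2 ALA pools differed here: ALA 1 was below ALA 2 for 45 of 47, and the number called was 32 without ALA 1, 10 without ALA 2, 3 without Control 1 and 2 without Control 2. Beside these, the mean of the 16 erythroid markers with a probe was 4.89 and 4.99 on Control, 5.50 and 5.54 on ALA, and 5.65 and 5.62 on SFA, with 3 of 10 tested markers called higher on ALA. The mean of the 11 megakaryocyte and platelet markers with a probe was 5.65 on both Control arrays, 6.36 and 6.15 on ALA, and 6.54 and 6.43 on SFA, with 4 of 10 called. Their part in the mitosis genes was not tested. Mki67, a marker of cycling cells, was at 4.77 and 4.82 on Control, 6.87 and 7.81 on ALA, and 7.89 and 7.97 on SFA. It reached the signal minimum through its ALA and SFA signal. Imprinted and fetal growth genes rose in 5 of 21 and fell in 0 on ALA, beside 8 and 1 on SFA. Among those that rose was Grb10, an inhibitor of growth factor receptors, by 2.24 on ALA and 2.11 on SFA. Genes known to rise in the liver after birth fell in 12 of 54 and rose in 2 on ALA, beside 13 and 3 on SFA; without ALA 2 the number that fell on ALA was 7. Igf1r, the receptor gene of the insulin-like growth factors, rose by 0.78 on ALA (SE 0.15) and was at 0.14 on SFA, without a called difference between the oils (adjusted p = 0.0838); it was chosen after its values were seen, and its call was lost without any Control or ALA array.

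Extracellular matrix genes rose in 22 of 47 on ALA (46.8%) and in 22 on SFA, with medians of 0.64 and 0.56 and 0 that fell on either oil. Without Control 2 the number on ALA was 8, without ALA 1 it was 13, and without ALA 2 it was 11. Markers of stellate, endothelial and macrophage cells were called higher too. The largest rise was 2.25 in both the matrix and the stellate list, and genes on both lists were counted in each. Of the stellate and fibroblast markers 11 of 18 rose on ALA, of the endothelial markers 10 of 18, and of the macrophage and Kupffer markers 13 of 16, and 0 fell in each. On SFA these numbers were 13, 9 and 10, and 0 fell in each. On ALA 18 of 18, 18 of 18 and 15 of 16 had a positive difference. The lowest counts without a Control or ALA array were 4 for stellate (Control 2), 3 for endothelial (ALA 2) and 4 for macrophage markers (Control 2). The mean of all stellate markers was 6.63 and 6.31 on Control, 7.40 and 7.48 on ALA, and 7.45 and 7.46 on SFA. For endothelial markers it was 7.55 and 7.03, 8.30 and 8.28, and 7.97 and 7.92, and for macrophage markers 7.06 and 7.03, 8.17 and 7.83, and 7.81 and 7.76. ALA was above both Control arrays for all 3 and above both SFA arrays for endothelial and macrophage markers. For macrophage markers this was narrow, with 7.83 on ALA 2 and 7.81 on SFA 1. Of the tested endothelial and macrophage markers, 0 were called between ALA and SFA. In whole liver RNA, more cells of a type and more RNA per cell cannot be told apart, and the part of cell composition in the gene changes was not tested. Of the 10 hepatocyte markers, 0 were called in limma's test, with a median of -0.01. An unadjusted p below 0.05 was reached by 1 of them, beside 2714 of all 10977 tested genes.

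**Figure D5:**
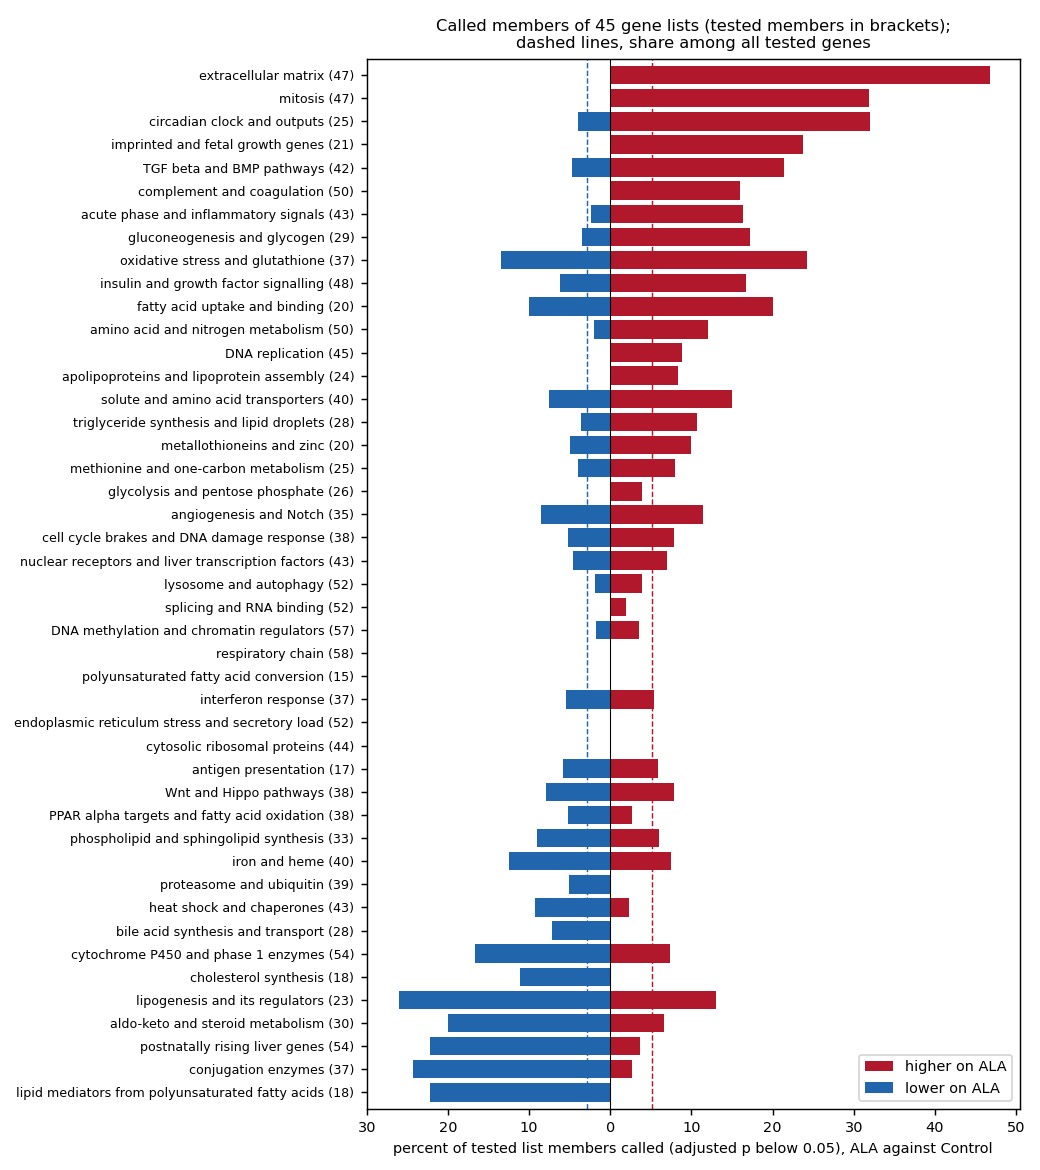
Percent of the tested members of 45 gene lists called higher (red, to the right) or lower (blue, to the left) on ALA against Control, with the share among all tested genes as dashed lines at 5.11% and 2.82%; list sizes are in brackets. Extracellular matrix, mitosis and clock lists reach farthest to the right, at 46.8%, 31.9% and 32.0%, and lipogenesis and conjugation enzymes farthest to the left, at 26.1% and 24.3%.

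Inflammatory and hormone signals gave a few genes on ALA. Counts in this paragraph read against the 5.11% of all tested genes higher and 2.82% lower on ALA, and the 6.62% and 7.15% on SFA. Of 43 acute phase and inflammatory genes, 7 rose and 1 fell on ALA, beside 4 and 3 on SFA, with medians of 0.20 and -0.10; without Control 1 or either ALA array 2 rose. Il6ra, the interleukin 6 receptor gene, was at 8.66 and 9.01 on Control, 9.88 and 9.80 on ALA, and 9.06 and 9.13 on SFA; it rose by 1.00 on ALA (SE 0.15), was at 0.26 on SFA, and was chosen after its values were seen, with its call lost without either ALA array. Lcn2, the gene of an iron-withholding acute phase protein, rose by 2.76 on ALA but with an SE of 0.64, since Control was at 7.63 and 9.86, and its call was lost without any array but Control 2. In amino acid metabolism 6 of 50 rose and 1 fell, and 2 or 3 rose with a Control or ALA array less. On SFA 6 of the 50 rose and 1 fell as well. Got1, an aspartate aminotransferase gene, rose by 1.05 on ALA and Asl, the urea cycle gene of argininosuccinate lyase, by 0.97. Both rose on SFA too, by 0.92 and 0.71. Prodh, proline dehydrogenase, rose by 1.02 on ALA and was at 0.58 on SFA. Asl was not called without Control 2, nor Prodh without Control 1 or ALA 1.

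Housekeeping processes held few called genes. Of 52 genes of endoplasmic reticulum stress, 44 cytosolic ribosomal protein genes and 58 respiratory chain genes, 0 passed in limma's test on ALA. An unadjusted p below 0.05 was reached by 8, 4 and 3 of them, beside 2714 of all 10977 tested genes. Their medians were -0.14, 0.08 and -0.03, and 39, 14 and 34 of them had a lower mean on ALA than on Control. Proteasome and ubiquitin genes had lower means in 35 of 39, with a median of -0.38 beside -0.13 on SFA. Of these, 2 passed (5.13%, against 2.82% of all tested genes lower): Psma1, which fell by 0.71 and was at 0.01 on SFA, and Psma3, which fell by 0.51. Both calls were lost without any 1 of the 6 arrays. Of 57 regulators of DNA methylation and chromatin, 2 rose and 1 fell (3.51% and 1.75%, below the 5.11% and 2.82% of all tested genes). Tet2 and Tet3, which encode enzymes that oxidize methylated cytosine, rose by 0.69 and 0.55 and were at 0.23 and 0.18 on SFA, and Dnmt1, the maintenance methyltransferase gene, was at -0.02. The calls of Tet2 and Tet3 were also lost without any 1 of the 6 arrays, and a second Tet3 probe of similar brightness was at 0.08.

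The array also carries probes for miRNA genes, which read the precursor or its host RNA rather than the mature miRNA. Of 57 tested, 3 fell on ALA (5.26%, against 2.82% of all tested genes) and 0 rose, while on SFA 16 fell (28.1%, against 7.15%) and 0 rose. Their mature forms are given because the seeds, bases 2 to 8 and here in capitals, set which RNAs they can pair with (RefSeq, GRCm38.p6).
mmu-miR-15a-5p, chr14:61632075-61632096, minus strand: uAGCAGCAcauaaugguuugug
mmu-miR-483-3p, chr7:142654932-142654952, minus strand: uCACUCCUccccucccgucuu
mmu-miR-326-3p, chr7:99552328-99552348, plus strand: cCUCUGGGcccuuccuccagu
No seed was shared. Mir15a was at 6.86 and 6.69 on Control, 5.77 and 6.09 on ALA, and 5.88 and 5.80 on SFA. ALA and SFA overlapped below Control, and the fall was 0.85 on ALA (SE 0.15, adjusted p = 0.023) and 0.94 on SFA. Mir483, which lies within the Igf2 gene, fell by 0.79 and 1.19, and Mir326 by 0.72 and 0.82. The calls of Mir15a and Mir326 on ALA were lost without any array but ALA 2, and that of Mir483 without any 1 of the 6.

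A last group of 6 genes was called on both oils but moved less on ALA than on SFA: Acmsd, Akr1c18, Arntl, Cyp2d37-ps, Mpzl1 and Pf4. Acmsd, which steers tryptophan away from NAD synthesis, was at 5.10 and 4.87 on Control, 6.37 and 6.43 on ALA, and 7.44 and 7.40 on SFA. ALA lay between the other diets without overlap, with a rise of 1.42 against 2.43. Mpzl1, a cell surface receptor gene, rose by 1.14 and 2.16, and the platelet factor gene Pf4 by 1.22 and 2.35. Cyp2d37-ps, a pseudogene of the cytochrome P450 2D family, fell by 0.77 and 1.89; its call on ALA was lost without any array but Control 1.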

How the data were processed

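The authors deposited 1 table of log2 values for the 6 arrays, which run from 1.98 to 13.1; the log base is inferred from this range. RMA and Partek 6.6 are the tools that the submitters' processing notes name. The other settings are not given in the sources used here. Of 35556 probes, 21789 had 1 gene symbol, 1621 had several and 12146 had none listed; only the first were used, the brightest per gene. No further scaling was applied.

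In R 4.3.3 with limma 3.58.1, a mean per diet was fitted to all 6 arrays (3 residual degrees of freedom, 7.05 after moderation), and ALA was contrasted with Control and with SFA, and SFA with Control. P-values were two-sided and adjusted by the Benjamini-Hochberg method over the 10977 tested genes; below 0.05 was called. Fold changes and SE are from this fit. The number of arrays limits the precision. The procedure was tested on simulated data.

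The members, the 45 gene lists and 17 marker lists, and the naming rule were chosen with earlier results of these data known. Named genes are up to 4 called members per list and direction, up to 15 per direction called against both diets (leaving out gene models and sex-linked genes), genes called the other way on SFA, and a fixed set of lipid and liver genes; of that set Fgf21 was below the signal minimum. Same-numbered arrays of different diets did not deviate together (r from -0.03 to 0.023), so the numbers were not taken to pair arrays. Alternatives covered scaling, the signal filter, the choice of probe, the variance model, sex chromosomes and each array.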

Additional observations from a re-analysis of the deposited data

How the results depend on the processing

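The number of genes called on ALA against Control was within 1.5 times the reported 871 under each scaling, filter, probe and variance alternative, from 613 without a signal filter to 1151 with an intensity trend. It was 267 to 475 when single arrays were left out, 448 with the ALA and Control arrays alone and 364 at a log2 change of at least 1. The number of genes called against both diets, 46, was 23 by quantile normalization, 24 by cyclic loess (13 higher, 11 lower), 9 without a filter, 85 at a mean of at least 6, 117 with an intensity trend, 16 at a log2 change of at least 1, and 0 to 12 without single arrays. The number called in opposite directions, 5, was 3 at equal 75th percentiles, 3 by quantile normalization, 0 without a filter, 1 at a log2 change of at least 1, and 0 to 3 without single arrays. With the replicate number as a block, which the pairing check did not bear out, the counts were 719, 0 and 1. No named gene changed the sign of a called difference in these alternatives. Of 230 named genes, 191 stayed on their side of the threshold with the block, and between 109 and 143 without a single array. With 2 arrays per diet, calls rest on a spread pooled over diets; where an array was left out, the lone array was assumed to vary like the others.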
